A study of Mus musculus with 9 samples.

Results

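The subunits of oxidative phosphorylation were followed in mouse kidney RNA across the 2 genomes that encode them. The 13 protein genes of mitochondrial DNA were taken by name (ND1 to ND6 with ND4L, COX1 to COX3, ATP6, ATP8 and CYTB). The nuclear members were taken by symbol: Nduf followed by a, b, c, s or v and a number, Sdha to Sdhd, and every symbol that began with Uqcr, Cox4 to Cox8 or Atp5. The rule found 101 genes among the 26139 gene symbols of the deposited table, 13 mitochondrial and 88 nuclear. Of the nuclear members, 39 belong to complex I, 4 to complex II, 8 to complex III, 20 to complex IV and 17 to complex V, while the mitochondrial members comprise 7 of complex I, 1 of complex III, 3 of complex IV and 2 of complex V. Ndufa4 and Ndufa4l2 were counted with complex IV, where the Ndufa4 protein is now placed. Cyc1 of complex III, the electron carrier Cycs and the complex I subunit Ndufab1 carry symbols outside the rule and are given with the related genes.

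Complexes I and II pass electrons from NADH and succinate to ubiquinone, complex III passes them on to cytochrome c, and complex IV reduces oxygen. Complexes I, III and IV pump protons across the inner mitochondrial membrane, and complex V, the ATP synthase, uses their return to make ATP. Complex II is encoded by nuclear genes alone, whereas the other complexes join a few mitochondrially made subunits to many that are imported. Mitochondrial DNA is transcribed from both strands as long precursors that are cut into mRNAs, and the kidney tubule, above all its proximal segment, is rich in mitochondria that power solute transport.

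Kidney RNA was sequenced in 3 groups of 3 libraries each. WT animals had the wild-type genotype on C57/BL6 and were gavaged with saline. The IgAN group carried the Itgam-IRES-hCD89 allele, in which the human IgA receptor CD89 is expressed from the myeloid integrin gene Itgam, and was gavaged with saline as well; it serves as a model of IgA nephropathy. GQYS denotes the same knock-in gavaged daily for 5 months with Gui-qi-yi-shen granules, a herbal preparation. Whether the 3 libraries of 1 group stem from different mice is not stated in the labels, and each p-value below measures the spread between these libraries, which may be technical. The labels name no age or sex.

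Library totals read from the steps of the FPKM values (fragments per kilobase of gene, scaled to the fragments counted in the library) ran from 30589404 to 38192492 reads. All 9 proximal tubule markers were above 0 in every library and summed to between 4624 and 5485 FPKM. Immune cell markers (6 or 7 of 7 above 0) summed to 32.1 to 40.8 FPKM in IgAN and 14.2 to 25.5 in the other 6 libraries. Collecting duct markers (8 of 8 above 0) summed to 221 to 313 FPKM in IgAN and 196 to 214 elsewhere, and endothelial markers (5 of 5) to 89.8 to 98.0 in GQYS and 65.2 to 84.5 elsewhere. These sums do not stand for each marker. Against WT, 3 of the 4 immune markers that were tested and 7 of 8 collecting duct markers were higher in IgAN. In that comparison 1 marker of each list had separate ranges, against 9.18% of all tested genes higher. In limma 1 immune marker passed adjustment there (adjusted p = 0.00312, background 0.353%). In GQYS against IgAN all 4 immune markers were lower, 3 with separate ranges and 1 passing (adjusted p = 0.0123, background 0.198%). Of the 8 collecting duct markers 6 were lower, 1 with separate ranges, against 9.29% of all genes lower. All 5 endothelial markers were higher, 2 with separate ranges, against 9.84% higher. WT replicate 1 stood apart for the members, and the changes against WT are given with and without it for member medians, complexes, related lists and the genes whose value moves most. WT replicate 3 had the highest urothelial sum, 14.6 against 0.596 to 5.38 FPKM elsewhere, and Adipoq, a hormone of fat cells, stood at 2.89 FPKM there and at most 0.0796 elsewhere.

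The transcripts of mitochondrial DNA fell into a high and a low set. Averaged over the 9 libraries, COX1, the catalytic subunit of complex IV, stood at 26756 FPKM, CYTB, the cytochrome b of complex III, at 24886, and ND1, a membrane subunit of complex I at the quinone site, at 14827. The membrane-arm subunits ND2, ND4 and ND5 of complex I followed at 8268, 8251 and 5566 FPKM. These 6 genes made up between 97.7% and 98.9% of the summed mitochondrial FPKM in each library. The other 7 were far lower, with COX2 at 524, ATP6 at 333, COX3 at 269, ND4L at 151, ND3 at 87.9, ND6 at 47.1 and ATP8 at 6.74 FPKM. COX2 and COX3 complete the core of complex IV, ATP6 is the proton-channel subunit of complex V with ATP8 beside it, and ND3, ND4L and ND6 are further membrane subunits of complex I.

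On the mitochondrial map (GENCODE M21, build GRCm38), the 6 low genes of the plus strand, COX2, ATP8, ATP6, COX3, ND3 and ND4L, lie next to one another between COX1 and ND4. ND6 is the only protein gene on the minus strand. ATP8 and ATP6 are carried on 1 mRNA and overlap, as do ND4L and ND4, so the levels of each pair are of particular interest. ATP8 lies at chrM:7766-7969 and shares its last 43 bases with ATP6, and ND4L lies at chrM:9877-10173 and shares its last 7 bases with ND4. Both coding sequences are shown from the GRCm38 reference, 5′ to 3′ on the plus strand, with the bases that are shared with the downstream gene in capitals.
ATP8: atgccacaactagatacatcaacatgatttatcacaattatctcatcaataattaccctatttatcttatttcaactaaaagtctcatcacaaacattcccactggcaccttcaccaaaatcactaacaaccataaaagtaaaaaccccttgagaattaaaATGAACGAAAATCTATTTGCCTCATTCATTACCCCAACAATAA
ND4L: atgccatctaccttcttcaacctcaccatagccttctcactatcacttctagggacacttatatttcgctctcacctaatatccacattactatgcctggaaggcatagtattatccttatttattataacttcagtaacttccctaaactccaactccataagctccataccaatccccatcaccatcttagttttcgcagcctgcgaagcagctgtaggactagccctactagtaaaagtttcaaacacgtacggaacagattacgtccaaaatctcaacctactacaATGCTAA

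Although each pair shares an mRNA, the upstream gene had the far lower FPKM in all 9 libraries. ND4 stood between 43.2 and 85.9 times above ND4L, and ATP6 between 13 and 103 times above ATP8. ATP8 rested on only 28 to 109 reads per library, the fewest of the mitochondrial members, while ND4L rested on 929 to 2401 reads and COX1 on 1044672 to 2256460. How the counting treated reads in the shared bases or at several genomic places is not given in the sources used here. In GENCODE M21, every 50-base window of COX2 also occurs letter for letter in transcripts of nuclear genes, as do 99.9% of the windows of COX3, 99.5% of ATP6, 98.8% of ND4L and 98% of ND3. The shares were 62.2% for ND4, 51.1% for COX1, 8.19% for ND2 and 7.61% for ND5, and none of the windows of ND1, CYTB, ND6 and ATP8 was found there. Only annotated transcripts were searched, so nuclear copies outside them were not looked for, and their absence is not shown for any gene. The levels of the 5 genes with nearly complete nuclear copies are therefore uncertain, and the part of these copies in their low values was not tested.

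**Figure D1:**
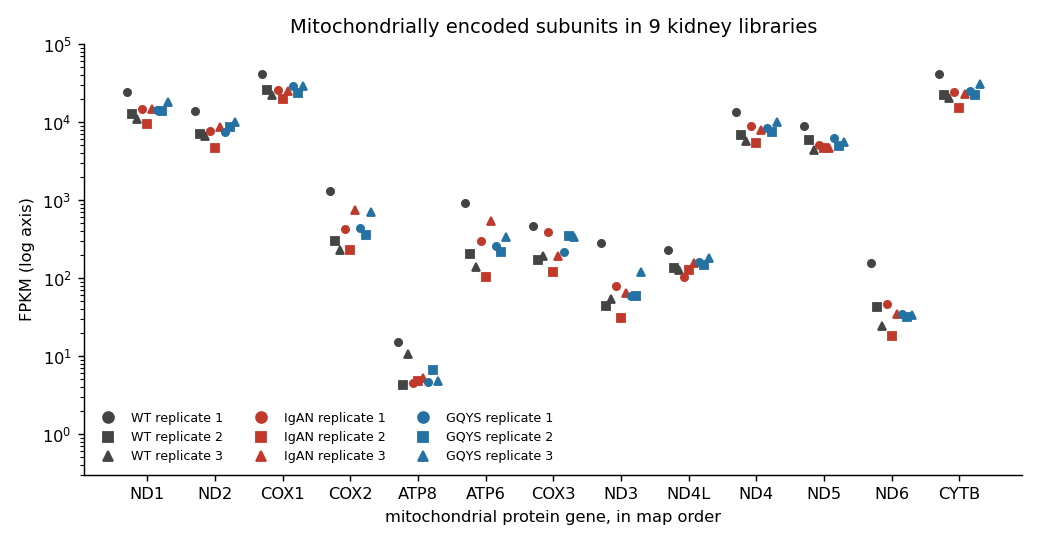
FPKM of the 13 mitochondrially encoded subunits on a log axis, in map order, with 1 point per library (colour gives the group, shape the replicate). The run from COX2 to ND4L and the minus-strand gene ND6 lie far below their neighbours in all 9 libraries, and WT replicate 1 is the top point of every gene.

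Across libraries the 13 mitochondrial genes moved widely, and WT replicate 1 was the highest for each of them. COX1 stood at 41507, 25816 and 22160 FPKM in the WT libraries, at 26069, 19696 and 24619 in IgAN and at 28763, 23548 and 28621 in GQYS. ND1 stood at 24422, 12668 and 11008 FPKM in WT, at 14785, 9530 and 14806 in IgAN and at 14200, 13828 and 18192 in GQYS. For both genes IgAN replicate 2 was the lowest library, as it was for 10 of the 13, and the 3 groups overlapped. The highest library exceeded the lowest by 2.02 times for ND5 and 2.11 times for COX1, but by 8.84 times for ND6, 8.86 times for ATP6 and 9.22 times for ND3. ND3 was 285 FPKM in WT replicate 1 and no more than 119 in any other library.

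The nuclear members were lower per length and steadier. Among the 85 that reached at least 1 FPKM in at least 3 libraries, the median of the mean level was 209 FPKM, and 71 were above 100 FPKM. The highest library exceeded the lowest by a median of 1.49 times, and by less than 2 times for 77 of the 85, against none of the 13 mitochondrial genes. Atp5b, the catalytic beta subunit of the ATP synthase, was the most abundant at 1462 FPKM, with 1000, 1585 and 1636 in WT, 1315, 1738 and 1548 in IgAN and 1413, 1570 and 1354 in GQYS. WT replicate 1 was thus its lowest library, the opposite of the mitochondrial genes, and the groups overlapped. Each other complex had a lower leader: Cox4i1 of complex IV at 923 FPKM, Uqcrh, the hinge subunit of complex III, at 550, Ndufb9, an accessory subunit of complex I, at 382, and Sdhb, the iron-sulfur subunit of complex II, at 345. Ndufa4 varied least of all, from 852 to 954 FPKM.

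The 3 remaining nuclear members were not tested because they stayed below that minimum. Cox8c was at 0 in all 9 libraries, where a count of 0 allows up to 3 reads per library. Cox7b2 was at 0 except for 0.0588 FPKM in GQYS replicate 3. Cox8b, the muscle and brown fat form of subunit 8, reached 3.21 FPKM in WT replicate 3 and at most 0.0901 elsewhere. In that library Ucp1, the uncoupling protein of brown fat, stood at 1.89 FPKM and Cidea at 1.92, whereas in the others Ucp1 did not exceed 0.0776. Elovl3, another brown fat marker, was at 0 there, and the part of such tissue in the Cox8b value was not tested.

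Summed over members, the 2 genomes varied differently between groups. The mitochondrial sum was 146355, 81049 and 71198 FPKM in WT, 87978, 59753 and 84749 in IgAN, and 91576, 81684 and 105413 in GQYS. The nuclear sum was 29144, 22742 and 23181 FPKM in WT, 27475, 24230 and 26331 in IgAN, and 25547, 23534 and 25703 in GQYS. WT replicate 1 was the highest library for both sums, the mitochondrial members taking 18.5% of its reads against 7.80% to 13.3% elsewhere. Because the scaling of a library cancels in a ratio, the mitochondrial sum was divided by the nuclear sum. This ratio was 5.02, 3.56 and 3.07 in WT, 3.202, 2.47 and 3.22 in IgAN and 3.58, 3.47 and 4.10 in GQYS. The mean of its log2 over the 3 libraries of a group, with the SD, was 1.93 ± 0.36 for WT, 1.56 ± 0.22 for IgAN and 1.89 ± 0.13 for GQYS (n = 3 each). In this ratio of sums all GQYS libraries lay above all IgAN libraries, while WT overlapped both. The separation was lost when the genomes were compared by the difference of mean log2(FPKM + 1). There IgAN replicate 3, at 2.57, lay above GQYS replicate 1, at 2.53. Lists chosen with earlier results known were given no test, so these are descriptions. The 5 markers of the thick ascending limb, another segment rich in mitochondria, were above 0 in every library. They summed lowest in WT replicate 1, at 1301 FPKM, and highest in IgAN replicate 2, at 2240, the libraries with the highest and the lowest mitochondrial sum. WT replicate 2 came close to the latter, at 2174 FPKM, with a mitochondrial sum of 81049. Singly, 2 of the 5 markers were higher and 3 lower in IgAN than in WT (median log2 change -0.12). The part of cell composition, including the immune, collecting duct and endothelial markers whose sums separate a group, in these values and in the comparisons below was not tested. In whole-tissue RNA, fewer mitochondria-rich cells and less RNA per cell cannot be told apart.

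**Figure D2:**
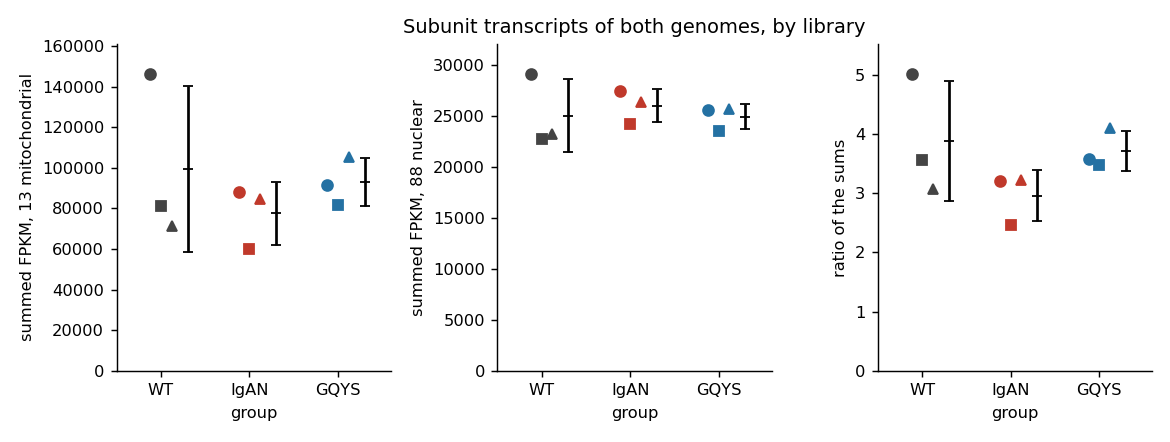
Summed FPKM of the 13 mitochondrial members (left), of the 88 nuclear members (middle) and the ratio of the sums (right), with 1 point per library (shape gives the replicate) and the mean ± SD of each group in black. All 3 GQYS ratios lie above all 3 IgAN ratios, and WT replicate 1 is the highest point in each panel.

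The comparison of IgAN with WT asks how the knock-in kidney differs from the wild type. All 13 mitochondrial genes were lower on average in IgAN, with a median log2 change of -0.32, while 65 of the 85 tested nuclear members were higher, with a median of 0.071, beside a median of 0.021 over all 11617 tested genes, of which 54.7% were higher. Changes are on the log2(FPKM + 1) scale. None of the 98 tested members passed the limma test with Benjamini-Hochberg adjustment over all tested genes (background 0.353%). At an unadjusted p below 0.05 there was 1 member, against 10.3% of all genes, and voom, a weighted limma fit on reads recovered from the FPKM steps, gave 0 members at either threshold. The ranges of the 2 groups were apart for 2 members, both nuclear and higher in IgAN, against 9.18% of all genes higher and 4.8% lower.

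The 1 gene below the unadjusted threshold was ATP8, at 15.2, 4.24 and 10.6 FPKM in WT and 4.49, 4.71 and 5.28 in IgAN. Its log2 change was -0.77 (SE 0.33, adjusted p = 0.452), and WT replicate 2 lay below all 3 IgAN libraries. ND5, with a change of -0.35 (SE 0.22, adjusted p = 0.656), and ND6, with -0.83 (SE 0.56, adjusted p = 0.679), came next among the mitochondrial genes. ND6 stood at 158, 43.0 and 24.4 FPKM in WT and 46.4, 17.9 and 34.4 in IgAN, so that WT replicate 1 alone lay above the IgAN libraries. COX1 differed by -0.30 (SE 0.24, adjusted p = 0.741) and ND1 by -0.24 (SE 0.30, adjusted p = 0.883), differences close to the spread between libraries. In the fit without WT replicate 1 the changes were -0.42 for ATP8, -0.087 for ND5, -0.080 for ND6, -0.038 for COX1 and 0.11 for ND1, the last on the other side of 0.

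Of the nuclear members, Cox5a, a matrix-side subunit of complex IV, had the smallest p. It stood at 68.3, 64.9 and 69.1 FPKM in WT and at 77.1, 73.1 and 76.9 in IgAN, and the ranges did not meet. The log2 change was 0.16 (SE 0.089, adjusted p = 0.591). The second member with separate ranges was Ndufs6, a subunit of the electron-input arm of complex I, at 206, 199 and 204 FPKM in WT and 236, 210 and 218 in IgAN. Uqcrc1, a core protein of complex III, differed by 0.21 (SE 0.12, adjusted p = 0.614), and Atp5g1 and Atp5g3, which encode the c-ring of the ATP synthase, by 0.25 and 0.15. Cox4i1, the regulatory subunit that binds ATP, differed by 0.17 (SE 0.12, adjusted p = 0.710). In these 4 genes the WT and IgAN libraries overlapped. With WT replicate 1 left out the changes were 0.27 for Uqcrc1, 0.40 for Atp5g1, 0.18 for Atp5g3, 0.28 for Cox4i1 and 0.17 for Cox5a.

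By complex, the nuclear medians were near one another in IgAN against WT, at 0.071 for complex I (30 of 39 higher), 0.067 for complex III (7 of 8), 0.067 for complex IV (13 of 17) and 0.086 for complex V (13 of 17). Complex II, which has no mitochondrial partner, had a median of -0.013 with 2 of its 4 genes higher. Without WT replicate 1 the medians were 0.25 for complex I (37 of 39 higher), 0.24 for complex III (7 of 8), 0.18 for complex IV (15 of 17), 0.19 for complex V (14 of 17) and -0.028 for complex II (2 of 4). With all libraries, every mitochondrial gene of complexes I, III, IV and V was lower in IgAN, against the sign of the nuclear median of the same complex, and no gene of either set passed. Among the 5 mitochondrial genes with a nearly complete copy in annotated nuclear transcripts the median was -0.25, and among the other 8 it was -0.35. Scaled to the reads of genes other than the 13 mitochondrial ones, the mitochondrial median was -0.36 and the nuclear one 0.024, with 55 of 85 higher. Quantile normalization, which gives each library the same distribution of values, brought them to -0.24 (2 of 13 higher) and 0.013 (53 of 85 higher).

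Both medians depended on the WT libraries, the mitochondrial one moving toward 0 and the nuclear one away from 0 without WT replicate 1. Without it, in an alternative that leaves 2 WT libraries, the mitochondrial median was -0.018 with 6 of 13 higher, and the nuclear median was 0.22 with 75 of 85 higher, beside 46.6% of all genes. In that fit 33 members had an unadjusted p below 0.05, against 19.8% of all genes, and 32 of these were nuclear and higher in IgAN (9.55% of all genes were higher at that p). Still none passed after adjustment, the smallest adjusted p being 0.0946 for Cox7a1. In the 2 WT libraries left, the median deviation from the mean of 9 libraries was -0.20 and -0.18 for members under 700 bases. For members of 1500 bases or more it was -0.13 and -0.077. The part of gene length in these counts, and in the value of Cox7a1 with 460 bases, was not tested. Without replicate 1 of both WT and IgAN, 8 members had an unadjusted p below 0.05 against 13.9% of all genes, and the medians were -0.11 and 0.16, with 77 of 85 nuclear members higher beside 45.3% of all genes. Without WT replicate 2 or 3 the mitochondrial median was -0.47 or -0.56, and the nuclear one was -0.0051 or -0.0030, on the other side of 0. Without IgAN replicate 1, 2 or 3 the mitochondrial median was -0.40, -0.17 or -0.47 and the nuclear one 0.027, 0.12 or 0.063.

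**Figure D3:**
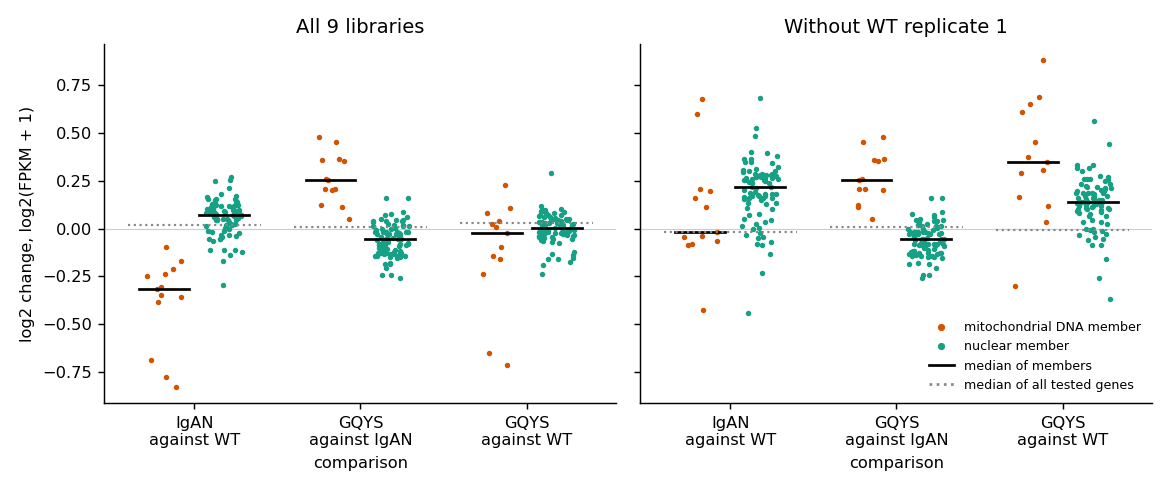
Log2 change on the log2(FPKM + 1) scale of each of the 98 tested members (orange mitochondrial DNA, green nuclear) in the 3 comparisons, from all 9 libraries (left) and without WT replicate 1 (right), with black bars for member medians and dotted lines for the median of all tested genes. With all libraries the medians of the 2 genomes lie on opposite sides of 0 in IgAN against WT and in GQYS against IgAN. Single nuclear members lie on both sides, 20 of 85 being lower in the former and 21 higher in the latter. In IgAN against WT the mitochondrial median moves from -0.32 to -0.018 without WT replicate 1.

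The comparison of GQYS with IgAN asks what differed in the knock-in kidney after the granules. All 13 mitochondrial genes were higher on average in GQYS, with a median log2 change of 0.26, and 64 of the 85 nuclear members were lower, with a median of -0.056, beside 0.0064 over all tested genes, of which 48.4% were lower. None passed in limma (background 0.198%). At an unadjusted p below 0.05 there was 1 member against 10.4% of all genes, and voom gave 0. The ranges of the 2 groups were apart for 5 members, all nuclear and lower in GQYS, against 9.29% of all genes lower and 9.84% higher. This comparison and the previous one share the IgAN libraries, so a low or high IgAN library shifts both in opposite directions.

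The member below the unadjusted threshold was again Cox5a, at 63.5, 63.1 and 69.7 FPKM in GQYS, each below the 3 IgAN libraries and overlapping with WT. Its log2 change was -0.21 (SE 0.089, adjusted p = 0.450). The table's FPKM for this gene fits a length of 3153 bases, against 645 bases for its GENCODE M21 transcript, so its level cannot be set beside those of other subunits. The lengths lay over 1.5 times apart for 13 of 80 nuclear members compared in this way. The other 4 members with separate ranges belong to complex I. Ndufa10, an accessory subunit of the membrane arm, stood at 180, 168 and 173 FPKM in IgAN and 152, 129 and 154 in GQYS, with a change of -0.26 (SE 0.14, adjusted p = 0.594). Ndufa8, an accessory subunit imported into the intermembrane space, stood at 205, 182 and 189 FPKM in IgAN and 171, 142 and 175 in GQYS, a change of -0.24 (SE 0.17, adjusted p = 0.711). Ndufa12 differed by -0.18 and the NADH-binding flavoprotein Ndufv1 by -0.12, each by about the spread between libraries. Atp5g3 differed by -0.14 with overlapping ranges.

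Among the mitochondrial genes, ND4L had the smallest p, at 102, 126 and 157 FPKM in IgAN and 161, 146 and 180 in GQYS. Its log2 change was 0.35 (SE 0.23, adjusted p = 0.682), and IgAN replicate 3 lay above GQYS replicate 2. CYTB differed by 0.36 (SE 0.29), with 24288, 15136 and 22574 FPKM in IgAN and 25278, 22215 and 31145 in GQYS. ND2 differed by 0.37 (SE 0.31), COX3 by 0.48 (SE 0.45) and ND3 by 0.45 (SE 0.64). COX1 and ND1 differed by 0.21 (SE 0.24) and 0.26 (SE 0.30). For each of these genes at least 1 IgAN library reached into the GQYS range.

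By complex, 35 of 39 nuclear genes of complex I were lower in GQYS than in IgAN (median -0.069), as were 6 of 8 of complex III (-0.059), 11 of 17 of complex IV (-0.083) and 10 of 17 of complex V (-0.022). Complex II was split, with 2 genes on each side. The mitochondrial median depended on IgAN replicates 2 and 3 in opposite ways. Without replicate 2 it was 0.085 with 10 of 13 higher, and without replicate 3 it was 0.43 with 13 of 13 higher, while the nuclear medians were -0.13 and -0.054. Without IgAN replicate 1 it was 0.36, without GQYS replicate 2 it was also 0.36, and without GQYS replicate 3 it was 0.16. Without GQYS replicate 2 the nuclear median was -0.0072 with 38 of 85 higher, and without IgAN replicate 1 it was -0.017. Quantile normalization brought the medians to 0.11 (11 of 13 higher) and -0.0088 (41 of 85 higher). Scaling to the reads of genes other than the 13 mitochondrial ones gave 0.29 (13 of 13 higher) and -0.025 (36 of 85 higher).

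The comparison of GQYS with WT asks how the treated knock-in differs from the untreated wild type. The mitochondrial median was -0.024 with 6 of 13 genes higher, and the nuclear median was 0.0018 with 45 of 85 higher, beside 0.029 over all genes, of which 59.3% were higher. None passed in limma, as for all genes (background 0%), and no member had an unadjusted p below 0.05 in limma or voom, against 4.43% of all genes in limma. No member had separate ranges, against 9.74% of all genes. ATP8 and ND6 again had the largest changes, -0.65 (SE 0.33) and -0.72 (SE 0.56), with WT replicate 1 as the top library of both. Among nuclear members Cox7a1 differed by 0.29 (SE 0.21), Ndufs6b by -0.24 (SE 0.20), Ndufb6 by -0.19 (SE 0.14), Ndufa10 by -0.16 (SE 0.14) and Atp5g2 by 0.12 (SE 0.10), all with an adjusted p of 0.999. Without WT replicate 1 these changes were 0.56 (SE 0.12, unadjusted p = 0.00101, adjusted p = 0.499) for Cox7a1, 0.025 for Ndufs6b, -0.030 for Ndufb6, -0.0061 for Ndufa10 and 0.034 for Atp5g2, with -0.30 for ATP8 and 0.034 for ND6. Ndufs6 and Ndufs6b share sequence, 8.33% of the 50-base windows of Ndufs6 occurring in Ndufs6b, and how reads were divided between them is uncertain. Without WT replicate 1 the medians were 0.35 for the mitochondrial genes, 12 of 13 being higher, and 0.14 for the nuclear ones, 71 of 85 being higher beside 48.8% of all genes. In that fit 7 members had an unadjusted p below 0.05, against 9.31% of all genes.

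WT replicate 1 differed in a way that followed gene length. It was the highest library for 57 of the 85 nuclear members and the lowest for a few, among them Ndufv1, Ndufs1, Sdha, Cox7a2l, Atp5b, Atp5a1 and Atp5g2. Ndufs1, the iron-sulfur subunit at the electron entry of complex I, has FPKM values that fit a length of 3657 bases. It stood at 53.3 FPKM there and at 104 and 108 in the other WT libraries. Sdha, the flavoprotein of complex II with 2859 bases, stood at 198 FPKM against 330 and 354. The reverse held for Uqcrb, a small subunit of complex III with 548 bases, at 535 FPKM against 280 and 301, although 43.2% of its 50-base windows also occur in other genes. Not every short gene did so, since Atp5g2, lowest in WT replicate 1, has 647 bases.

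Over the 85 nuclear members, the deviation of a library from the mean of 9 had a Spearman rho with gene length of -0.47 in WT replicate 1 and 0.37 and 0.44 in the other WT libraries. It was -0.47, 0.50 and 0.01 in the IgAN libraries and -0.02, 0.25 and -0.33 in the GQYS libraries. Over 11519 other tested genes rho was -0.44, 0.27 and 0.42 in WT, -0.28, 0.29 and -0.11 in IgAN and -0.26, 0.42 and -0.14 in GQYS. These values describe genes that share a library, and genes are not independent replicates. In WT replicate 1 the median deviation was 0.38 for the 38 members under 700 bases, 0.22 for the 28 from 700 to under 1500 bases and 0.18 for the 19 longer ones, beside 0.30, 0.14 and -0.14 for other genes of the same lengths. With the length trend of each library removed, an alternative chosen after seeing the data, the mitochondrial and nuclear medians were -0.34 and 0.058 in IgAN against WT and 0.27 and -0.057 in GQYS against IgAN, and no member passed. What sets the length trend of a library was not tested.

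**Figure D4:**
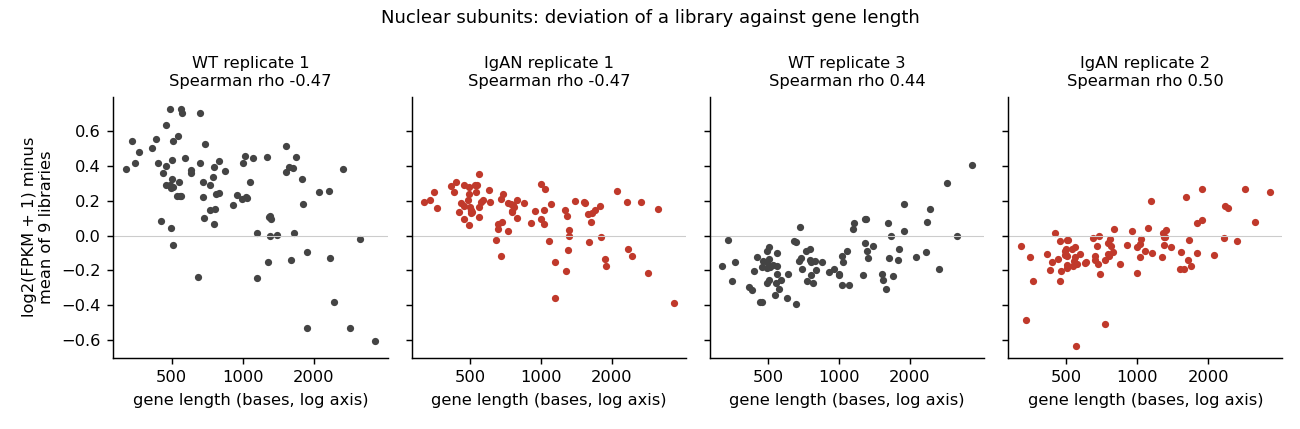
Deviation of the 85 tested nuclear members from their mean over 9 libraries, in log2(FPKM + 1), against gene length in bases on a log axis, in 4 libraries with 1 point per gene. Longer members have lower deviations in WT replicate 1 and IgAN replicate 1 (rho -0.47 in both), though many long members still lie above 0 there, and higher ones in WT replicate 3 and IgAN replicate 2 (rho 0.44 and 0.50).

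**Figure D5:**
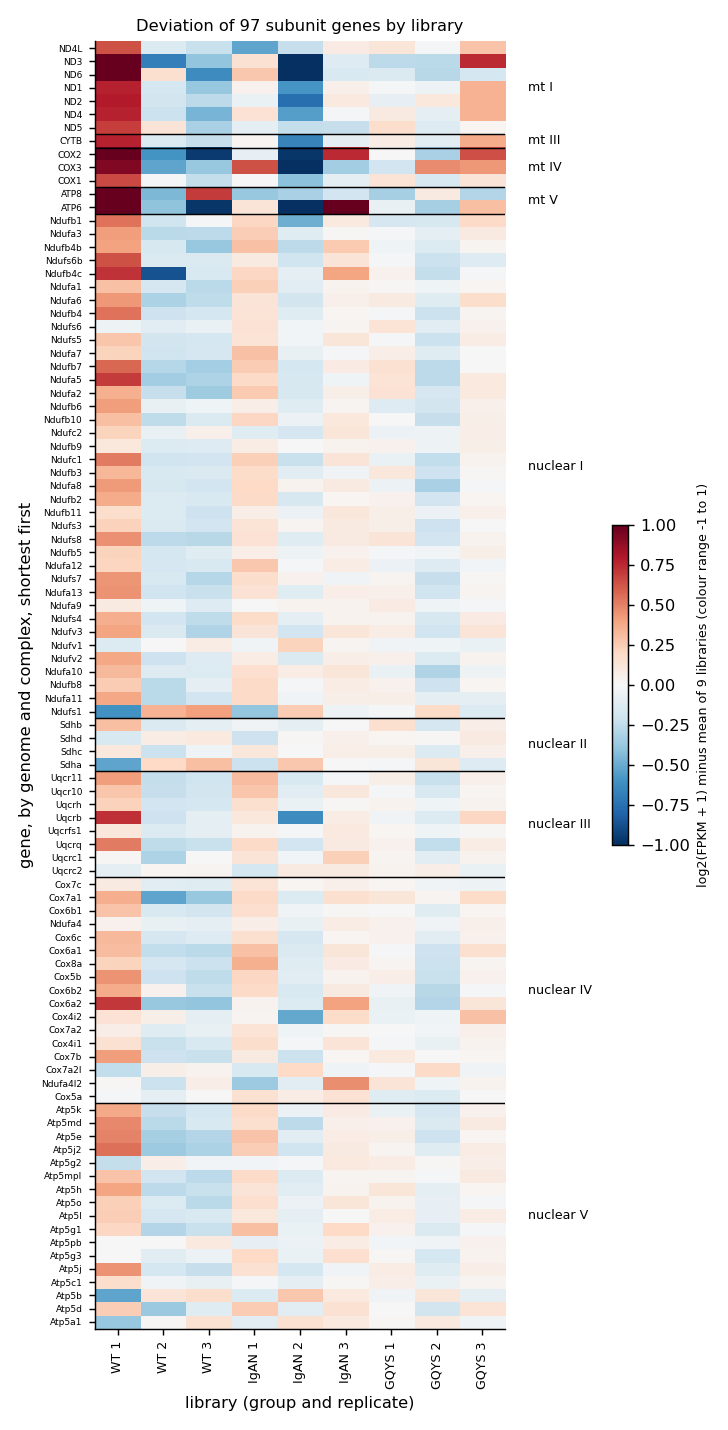
Deviation of 97 tested members from their mean over 9 libraries, in log2(FPKM + 1), with genes in rows by genome and complex, the shortest first, and libraries in columns; colours stop at -1 and 1. The WT replicate 1 column is red for all 13 mitochondrial and most nuclear genes and blue for long nuclear genes such as Ndufs1 and Sdha, and IgAN replicate 2 is blue for most mitochondrial genes.

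Several nuclear subunits exist as tissue forms, and the kidney used the general form almost alone. Cox4i2, the lung form of subunit 4, averaged 0.0999% ± 0.014 (SD, n = 3) of the FPKM of its pair with Cox4i1 for WT, 0.073% ± 0.039 for IgAN and 0.0998% ± 0.027 for GQYS. The heart and muscle form Cox6a2 made up 0.191% to 0.383% of its pair with Cox6a1, the testis form Cox6b2 0.637% to 0.845% of its pair with Cox6b1, and the hypoxia-induced Ndufa4l2 0.212% to 0.452% of its pair with Ndufa4. Cox7a1, the heart and muscle form of subunit 7a, was the exception in level. It stood at 27.7, 14.6 and 16.2 FPKM in WT, at 24.5, 19.4 and 24.0 in IgAN and at 23.3, 21.8 and 24.4 in GQYS, beside 350 to 418 FPKM of Cox7a2. Its share of the pair was 4.94% ± 1.38 in WT, 5.48% ± 0.45 in IgAN and 5.73% ± 0.17 in GQYS, differences below the spread within WT. That spread came from WT replicate 1, at 6.53% against 4.001% and 4.30% in the other WT libraries, which lay below all 6 IgAN and GQYS libraries (5.005% to 5.90%). The log2 change of Cox7a1 in IgAN against WT without that library was 0.52 (SE 0.12, unadjusted p = 0.00163, adjusted p = 0.0946). Markers of skeletal and heart muscle summed to at most 0.524 FPKM in any library.

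The c-ring of the ATP synthase is made from 3 genes that encode the same mature protein. Atp5g3 held 55.4% ± 0.74 of their summed FPKM for WT, 55.2% ± 0.60 for IgAN and 54.1% ± 1.01 for GQYS. Atp5g1 gave 23.3% ± 3.52, 24.6% ± 1.12 and 23.5% ± 0.44, and Atp5g2 gave 21.3% ± 3.08, 20.2% ± 1.72 and 22.3% ± 0.93 (SD, n = 3 each). The order between Atp5g3 and the other two held in all 9 libraries, whereas the shares of Atp5g1 and Atp5g2 ran from 17.9% to 27.4% over all libraries and changed places between them. The lengths that fit their FPKM differ from those of the matched GENCODE M21 transcripts. They are 998 against 4715 bases for Atp5g1, 647 against 753 for Atp5g2 and 1396 against 723 for Atp5g3. The order of the 3 genes is therefore uncertain, and only the share of 1 gene can be set side by side between groups.

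Nuclear respiratory genes are known for promoters that bind NRF1, GABPA (also called NRF-2) and YY1. RefSeq promoters (build GRCm38.p6, 250 bases before to 50 after the start) were found for 70 of the 88 nuclear members, and both strands were searched. The core NRF1 motif GCATGCG occurred in 11 of them (15.7%), among them Cox6a1, Ndufa8, Sdhb, Uqcrc1 and Atp5g2, beside 4.01% of 27025 genes and 7.16% of 9233 tested genes. The GABPA motif CCGGAAG occurred in 17 (24.3%), beside 9.93% and 20.3%, and the YY1 motif AAGATGG in 11 (15.7%), beside 7.28% and 8.69%. None of the 3 motifs contains another, and a match describes letters and not binding. The 250 bases before the start are shown for Cox6a1, at chr5:115348959-115349208 on the minus strand, because its promoter holds both the NRF1 and the GABPA motif, and for Ndufa8, at chr2:36049339-36049588 on the minus strand, because its IgAN and GQYS ranges were apart. Capitals mark the NRF1 motif on either strand, with overlapping matches of the 2 strands joined.
Cox6a1: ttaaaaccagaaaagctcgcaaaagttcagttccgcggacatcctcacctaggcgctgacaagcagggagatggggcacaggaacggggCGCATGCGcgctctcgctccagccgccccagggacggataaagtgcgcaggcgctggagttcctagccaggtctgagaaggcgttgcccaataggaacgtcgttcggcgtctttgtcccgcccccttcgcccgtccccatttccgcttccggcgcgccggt
Ndufa8: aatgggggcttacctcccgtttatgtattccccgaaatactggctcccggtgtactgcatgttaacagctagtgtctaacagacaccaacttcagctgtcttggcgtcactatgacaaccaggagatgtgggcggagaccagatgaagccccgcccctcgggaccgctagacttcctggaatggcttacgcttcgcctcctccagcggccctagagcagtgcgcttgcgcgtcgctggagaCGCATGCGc

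The levels of both genes overlapped between WT and the other groups. Cox6a1, a small membrane subunit of complex IV, stood at 1032, 705 and 692 FPKM in WT, at 1020, 754 and 909 in IgAN and at 828, 721 and 934 in GQYS. Its log2 change was 0.16 (SE 0.18; 0.35 without WT replicate 1) in IgAN against WT and -0.11 (SE 0.18) in GQYS against IgAN. Nrf1 itself was near the minimum for testing, at 0.842 to 1.22 FPKM, and differed by 0.020 (SE 0.11) and 0.0052 (SE 0.11) in the same comparisons. Gabpa stood at 5.26 FPKM in WT replicate 1 and at 6.27 to 10.1 elsewhere.

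None of 189 tested related genes passed in any comparison in limma or voom. At an unadjusted p below 0.05 limma gave 6, 6 and 2 of them in IgAN against WT, in GQYS against IgAN and in GQYS against WT, and voom 5, 4 and 3. For limma the shares of all genes were 10.3%, 10.4% and 4.43%. Without WT replicate 1 there were 26 in IgAN against WT and 12 in GQYS against WT, beside 19.8% and 9.31% of all genes, and none passed. Of 78 mitochondrial ribosomal protein genes, which translate the 13 mitochondrial mRNAs, 59 were higher in IgAN than in WT (median 0.082) and 60 were lower in GQYS than in IgAN (median -0.065), close to the nuclear subunit medians. The first count was 65 without WT replicate 1 (median 0.16). The examples with the smallest p were Mrps18a (0.31, SE 0.12; 0.20 without WT replicate 1) and Mrps27 (0.28, SE 0.10) in the first comparison and Mrps6 (-0.51, SE 0.22) and Mrpl38 (-0.33, SE 0.15) in the second. Of 16 genes that track mitochondrial mass, 13 were higher in IgAN than in WT (median 0.074) and 13 were lower in GQYS than in IgAN (median -0.12), while without WT replicate 1 the former count was 9 (median 0.081). Citrate synthase, Cs, stood at 95.2, 94.6 and 100.4 FPKM in WT, at 107, 106 and 111 in IgAN and at 93.3, 96.6 and 98.6 in GQYS, so that IgAN lay above both other groups (adjusted p = 0.584 and 0.566). Of these 16 genes, 1 was higher with separate ranges in IgAN against WT, beside 9.18% of all genes. In GQYS against IgAN 4 were lower with separate ranges, beside 9.29% of all genes.

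Of 29 tested genes that maintain and express mitochondrial DNA, 13 were higher and 16 lower in IgAN than in WT (median -0.038; 11 and 18 without WT replicate 1, median -0.055), and 20 were higher in GQYS than in IgAN (median 0.024). Tfam, which packages and activates mitochondrial DNA, stood at 11.8, 13.6 and 14.2 FPKM in WT, at 11.4, 12.5 and 11.9 in IgAN and at 13.8, 13.1 and 12.1 in GQYS, with overlap throughout. Tefm, the mitochondrial transcription elongation factor, differed by -0.15 (SE 0.11; -0.23 without WT replicate 1) in IgAN against WT and by 0.28 (SE 0.11, adjusted p = 0.420) in GQYS against IgAN, and Polg2, the accessory subunit of the mitochondrial DNA polymerase, by -0.19 (SE 0.097) and 0.24 (SE 0.097). Mgme1, an exonuclease of mitochondrial DNA replication, differed by 0.30 (SE 0.11, adjusted p = 0.344) in IgAN against WT. Fastkd5, needed to process mitochondrial precursors, differed by -0.28 (SE 0.11) in GQYS against IgAN and by -0.26 (SE 0.11) in GQYS against WT, and Mterf4, a factor of mitochondrial ribosome assembly, by 0.31 (SE 0.10) in the latter.

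Of 50 tested assembly factors, 27 were higher and 23 lower in IgAN than in WT (median 0.0092; 28 and 22 without WT replicate 1, median 0.037), and 26 were lower in GQYS than in IgAN (median -0.0040). Sdhaf1, which inserts iron-sulfur clusters into Sdhb, had the smallest p in the first comparison, at 34.2, 28.9 and 29.9 FPKM in WT and 25.4, 22.2 and 23.3 in IgAN. Of the 50 factors, 2 were higher with separate ranges and Sdhaf1 alone was lower, against 9.18% and 4.8% of all genes. The log2 change of Sdhaf1 was -0.37 (SE 0.12, adjusted p = 0.288), whereas Sdhb differed by -0.064 (SE 0.14). These changes were -0.30 and 0.076 without WT replicate 1. Timmdc1, an assembly factor of complex I, differed by 0.19 (SE 0.091) in IgAN against WT. Ttc19, one of complex III, differed by -0.30 (SE 0.13) in GQYS against IgAN. Among 11 tested regulators of mitochondrial biogenesis, Ppargc1b, a coactivator of respiratory genes, stood at 1.89, 1.90 and 2.09 FPKM in WT, at 1.61, 1.48 and 1.14 in IgAN and at 1.66, 1.98 and 2.22 in GQYS. All IgAN libraries lay below both other groups, with changes of -0.30 (SE 0.12, adjusted p = 0.390) and 0.29 (SE 0.12, adjusted p = 0.416). Ppargc1b was the only 1 of the 11 with separate ranges in either comparison, against 4.8% of all genes lower and 9.84% higher. Its values lie close to the minimum of 1 FPKM for testing. The estrogen-related receptor gene Esrrb differed by 0.44 (SE 0.25) in IgAN against WT and the coactivator gene Pprc1 by -0.39 (SE 0.21) in GQYS against IgAN. Cyc1 ran from 181 to 235 FPKM, Cycs from 82.3 to 104 and Ndufab1 from 49.6 to 64.6, and none of these 3 passed.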

How the data were processed

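RNA from 9 kidney libraries was analysed from the 1 table of FPKM values that the authors deposited for 26139 gene symbols. Per the submitters' processing notes, fastp, HISAT2, HTSeq, DESeq2, R 3.2.0 and the mouse build GRCm39 were used, with no roles named. Not given in the sources used here: annotation, strand setting and the treatment of multiply mapping reads. Since FPKM is scaled to the library total, the abundant mitochondrial transcripts lower the values of the rest. Columns were assigned to samples by the library names in the labels.

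The members, lists and tests were chosen with earlier results of these data known. A linear model of the 3 groups was fitted to all libraries with limma 3.58.1 (R 4.3.3, eBayes with trend) on log2(FPKM + 1), a pseudocount of 1. It covered the 11617 genes that reached 1 FPKM in 3 or more libraries, with Benjamini-Hochberg adjustment and a threshold of 0.05. This filter kept all 13 mitochondrial and 85 of 88 nuclear members. On simulated data for IgAN against WT over 11617 genes, the share recovered was 6% for 1.25-fold changes, 40% for 1.5-fold, 86% for 2-fold and 100% for 4-fold; false calls made up 9.38%. The simulated noise was independent between genes.

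Low FPKM values moved in steps of 1 read. Whole reads were obtained within 0.03 reads in all libraries for 23795 of 23797 detected genes and all 101 members, and their sums differed from the library totals by at most 0.0504%. These reads served for voom, depth and the scaling without the mitochondrial genes. The gene lengths came from the same step, as the shortest length that gave whole reads, since the deposited table lists none.

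Named were all mitochondrial members, the 5 nuclear members with the smallest p per comparison (none passed), the most abundant nuclear member per complex, tissue isoforms and 2 genes per related list and comparison. Members with separate ranges, some of those lowest in WT replicate 1, Uqcrb, and Nrf1, Gabpa, Tfam and the genes outside the symbol rule were added after their values were seen. The values of 1 nuclear member are not reported singly here. Names were matched to GENCODE M21 and RefSeq (GRCm38), and no coordinate of the authors' build was used. Alternatives covered the pseudocount, filter, scaling, groups in the fit, a replicate block and each library left out. Voom, scaling without the mitochondrial genes, removal of the length trend and the fit without replicate 1 of WT and IgAN were added after seeing the data. Figures were made in Python 3.11.15 (matplotlib 3.10.9).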

Additional observations from a re-analysis of the deposited data

How the results depend on the processing

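No member passed the threshold under any of the 19 alternatives in any comparison, and the smallest adjusted p of a named member was 0.0573 for IgAN against WT, 0.143 for GQYS against IgAN and 0.249 for GQYS against WT. Of 722 values of 38 named members per comparison, 37, 34 and 80 changed sign. The mean log2 ratio of the genomes was 2.77 in WT, 2.34 in IgAN and 2.66 in GQYS as a difference of mean log2(FPKM + 1) in place of sums. By that measure the IgAN and GQYS libraries overlapped. Library medians had a pooled SD of 0.44 for mitochondrial and 0.17 for nuclear members, which limits what medians of 3 libraries can show, and ATP8 is limited by its few reads.

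The labels do not say that equal replicate numbers share a source, and the libraries were not treated as paired, since not every same-numbered pair correlated above 0.1: r was 0.22 to 0.58 between replicates 1, 0.35 to 0.47 between replicates 2 and -0.36 to 0.078 between replicates 3. A library correlated best with its own number in 9 of 18 checks. With a replicate block, 68, 26 and 0 genes passed in place of 41, 23 and 0, no member passed, and the smallest adjusted p of a member was 0.338, 0.342 and 0.899.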
